A study of Mus musculus with 19 samples.

Results

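The genes described here are 30 genes of sterol and fatty acid synthesis, followed through RNA-seq of cultured mouse neural progenitor cells (NPCs), the dividing precursors of cortical neurons and glia. They were taken by name from a fixed list, which was chosen with earlier results of these data known. The list holds 16 enzymes of sterol synthesis, 4 genes that regulate the pathway or carry sterols, and 10 genes of fatty acid synthesis, elongation and desaturation. All 30 were among the 26621 genes of the count table, and all 30 were among the 13105 genes that passed the filter on low counts. Msmo1 was listed under its older symbol Sc4mol.

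The cells came from the cerebral cortex of mice at embryonic day 17.5. The groups were wild type (WT) cells and cells with Mettl8 knocked out conditionally (cKO). Mettl8 encodes an enzyme that makes 3-methylcytidine (m3C) in mitochondrial tRNAs. WT and cKO cells were kept under the same culture conditions, on Matrigel in DMEM/F12 with B27, N2, bFGF and EGF. The labels name neither the Cre driver nor the sex of the embryos. SMART-seq2 libraries were made from 300 ng of total RNA for 6 WT and 6 cKO samples, and the library names fall into a first set (3 WT and 2 cKO, here set 1) and a second set (3 WT and 4 cKO, here set 2). What differed between the sets is not stated, and neither is whether samples of one genotype came from separate animals or cultures, so the p-values below reflect the scatter among these samples, part of which may be technical.

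Cholesterol is built from acetyl-CoA through mevalonate, squalene and lanosterol, and most enzymes of the route are transcribed under the control of SREBP2, a membrane-bound transcription factor that is released when sterols are scarce. Fatty acids are built from the same acetyl-CoA by acetyl-CoA carboxylase and fatty acid synthase, then lengthened by elongases and given double bonds by desaturases, with SREBP1 as a main regulator. Dividing neural progenitors use both products for membranes, and the embryonic brain makes its own cholesterol because circulating lipoproteins do not cross the blood-brain barrier.

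Library totals ran from 15096888 to 18863781 counts in WT and from 11830839 to 15766429 in cKO. Markers of neural progenitors and radial glia summed to between 11012 and 15773 CPM (counts scaled to a common library total), with all 8 markers detected. Markers of microglia, endothelium, mural cells and meningeal fibroblasts each summed to at most 10.9 CPM, and C1qa and Tmem119 of microglia had no read in any library. Mettl8 itself ranged from 35.9 to 58.6 CPM in WT (median 46.9) and from 59.3 to 80.9 CPM in the libraries labelled cKO (median 74.9), a log2 fold change of 0.67 (SE 0.119, edgeR adjusted p = 0.265). Over the whole gene, every library labelled cKO was thus above every WT library, and 0.13% of all genes tested separated the genotypes in this way. No gene tested had a smaller adjusted p between genotypes. The labels do not give the deleted part, so these counts do not check the knockout, and cKO below means the genotype as labelled. The level of Y-linked genes was high in cKO replicates 1 (684 CPM) and 5 (654 CPM) and at most 6.40 CPM elsewhere.

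The sequence before the start of transcription is shown for 5 genes because they differed most between the sets in their branch or held the sterol regulatory element searched for. RefSeq windows of 250 bases before the start (GRCm38.p6) matched 23 of the 30 genes. The line for Hsd17b7 holds 213 bases, because the rest of its window lies inside the annotated gene. In the lines below, capitals mark the motifs TCACNCCAC (the core of a sterol regulatory element) and CCAAT (the box bound by NF-Y), each searched on both strands, so that ATTGG is CCAAT on the other strand. Positions are chr13:119690101-119690350 (plus strand) for Hmgcs1, chr1:169969243-169969455 (minus strand) for Hsd17b7, chr8:64733579-64733828 (minus strand) for Msmo1, chr5:28071162-28071411 (plus strand) for Insig1 and chr3:129532136-129532385 (plus strand) for Elovl6.
Hmgcs1: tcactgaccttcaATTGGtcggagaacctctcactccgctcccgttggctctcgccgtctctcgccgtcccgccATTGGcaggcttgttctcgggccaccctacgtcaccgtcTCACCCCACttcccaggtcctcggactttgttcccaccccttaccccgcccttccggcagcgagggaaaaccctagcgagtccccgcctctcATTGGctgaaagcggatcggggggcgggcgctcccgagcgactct
Hsd17b7: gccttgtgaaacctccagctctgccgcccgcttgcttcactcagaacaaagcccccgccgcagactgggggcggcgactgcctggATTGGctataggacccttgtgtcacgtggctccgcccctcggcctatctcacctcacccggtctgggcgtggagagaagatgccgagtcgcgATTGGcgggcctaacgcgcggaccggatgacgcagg
Msmo1: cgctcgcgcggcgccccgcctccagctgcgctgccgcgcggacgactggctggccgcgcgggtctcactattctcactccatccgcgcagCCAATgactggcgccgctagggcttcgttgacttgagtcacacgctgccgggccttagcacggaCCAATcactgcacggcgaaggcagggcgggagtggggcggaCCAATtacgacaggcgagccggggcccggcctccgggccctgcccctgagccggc
Insig1: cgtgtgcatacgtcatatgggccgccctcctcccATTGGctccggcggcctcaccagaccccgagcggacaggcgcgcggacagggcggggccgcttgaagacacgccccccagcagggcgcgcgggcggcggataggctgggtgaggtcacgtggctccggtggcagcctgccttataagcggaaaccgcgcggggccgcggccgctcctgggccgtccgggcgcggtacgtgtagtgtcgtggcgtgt
Elovl6: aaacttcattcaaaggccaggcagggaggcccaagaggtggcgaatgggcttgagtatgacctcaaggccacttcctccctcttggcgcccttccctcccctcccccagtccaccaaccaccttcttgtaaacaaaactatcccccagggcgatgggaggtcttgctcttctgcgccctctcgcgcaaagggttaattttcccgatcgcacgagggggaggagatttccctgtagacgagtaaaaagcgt
Hmgcs1 held TCACNCCAC 137 bases before its start and CCAAT at 3 places, and Msmo1 held CCAAT at 3 places. The full window of Hsd17b7 held CCAAT at 3 places, of which the one 12 bases before the start lies in the stretch not printed. Insig1 held CCAAT once, 216 bases before its start, and the Elovl6 window held none of it.

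The windows of the branches were then set beside all promoters of the same length. With 1 window per gene, CCAAT was in 12 of 13 sterol enzymes (92.3%) and all 3 regulators with a window (Insig1, Srebf1 and Srebf2). Of the fatty acid genes, 3 of 7 (42.9%) held it, namely Acss2, Elovl5 and Fasn. The background was 34.5% of 27025 promoters and 37.1% of those of genes tested here. Where a gene had more than 1 window the first listed was taken, and these counts depend on that choice. Pmvk and Srebf1 were counted as holding CCAAT, though another window of each lacked it. Dhcr7, the sterol enzyme without it, had the motif in another of its 3 windows, which lies inside the annotated gene. The windows of Srebf1, Fasn and Acaca also lie wholly inside their annotated genes, so they do not precede the outer end of the gene. Mvk held it at 5 places. The GC box GGGCGG was in 12 of 13 sterol windows and 3 of 7 fatty acid windows, against 32.9% of all promoters and 60.2% of those of genes tested here. The E-box CACGTG was in 2 of 13 sterol and 1 of 7 fatty acid windows (6.05% of all promoters, 8.58% of those of genes tested). TCACNCCAC was in Hmgcs1 alone of the 23 (1.04% of all promoters, 0.932% of those of genes tested). In the windows printed above no marked match overlaps another. A match is a description of letters and no site of binding was measured.

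The first comparison was between the libraries labelled cKO and WT. None of the 30 passed an adjusted p of 0.05 between cKO and WT in edgeR's quasi-likelihood test, which takes genotype within the library sets, and the background was also 0% (0 of 13105 genes). At an unadjusted p under 0.05 there was 1 gene of the 30 (Sqle), where 6.14% of all genes tested reached it (2.86% higher and 3.28% lower). The median log2 fold change was 0.0048 for the sterol enzymes, 0.012 for the regulators and carrier and 0.03 for the fatty acid genes, beside -0.001 for all genes tested. In no member did the 6 cKO libraries lie wholly above or below the 6 WT libraries, and 0.13% of all genes tested did. In bulk RNA, fewer cells of a type and less RNA per cell cannot be told apart.

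The intervals show which sizes these data allow. The upper end of the 95% interval of the genotype difference stayed under a log2 fold change of 0.35 in 28 of the 30 genes. The others were Srebf2 (0.23, interval -0.04 to 0.50) and Mvk (0.24, interval -0.08 to 0.56). Only the interval of Sqle left out 0 (0.0005 to 0.28), with no adjustment for the number of genes. The lowest bound was that of Acss2 at -0.35. The narrowest estimates included Msmo1 (-0.02, interval -0.11 to 0.07), Acly (0.04, interval -0.06 to 0.14) and Sc5d (0.00, interval -0.11 to 0.11).

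Among the sterol enzymes, Sqle, Pmvk and Mvk had the smallest genotype p. Sqle, squalene epoxidase, a rate-limiting enzyme after mevalonate synthesis, ranged from 224 to 360 CPM in WT (median 306) and from 268 to 398 CPM in cKO (median 357). Within set 1 it was at 261 ± 39.1 CPM in WT (SD, n = 3) and 277 ± 12.2 in cKO (SD, n = 2), and within set 2 at 333 ± 25.8 in WT (SD, n = 3) and 377 ± 23.5 in cKO (SD, n = 4). The genotypes overlapped in set 1 and in set 2. In edgeR the log2 fold change of Sqle was 0.14 (SE 0.0675), with an unadjusted p of 0.0493 and an adjusted p of 0.806. Pmvk, phosphomevalonate kinase, ranged from 156 to 224 CPM in WT (median 190) and from 143 to 212 in cKO (median 188), with a log2 fold change of -0.11 (SE 0.0583) and an adjusted p of 0.812. Mvk, mevalonate kinase, ranged from 10.5 to 22.1 CPM in WT (median 12) and from 11.3 to 19.1 in cKO (median 13.9), with a log2 fold change of 0.24 (SE 0.155) and an adjusted p of 0.862. For both kinases the WT and cKO ranges covered most of each other. For Mvk this rested on WT replicate 1 at 22.1 CPM, since the next WT library was at 12.55 CPM, below the cKO median.

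In the fatty acid branch the 3 genes of smallest genotype p were Fads2, Acss2 and Acaca. Fads2, the delta-6 desaturase of polyunsaturated fatty acid synthesis, ranged from 22.2 to 31.0 CPM in WT (median 27.2) and from 26.3 to 34.9 in cKO (median 29.7). Acss2, which makes acetyl-CoA from acetate, ranged from 48.9 to 78.6 CPM in WT (median 57.7) and from 43.1 to 66.8 in cKO (median 55.5). Acaca, acetyl-CoA carboxylase, the committed step of fatty acid synthesis, ranged from 30.5 to 39.8 CPM in WT (median 36.7) and from 32.5 to 45.8 in cKO (median 38.0). The genotypes overlapped for all 3 genes. Their log2 fold changes were 0.14 (SE 0.0963), -0.13 (SE 0.107) and 0.09 (SE 0.0804), with edgeR adjusted p of 0.870, 0.886 and 0.891.

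**Figure D1:**
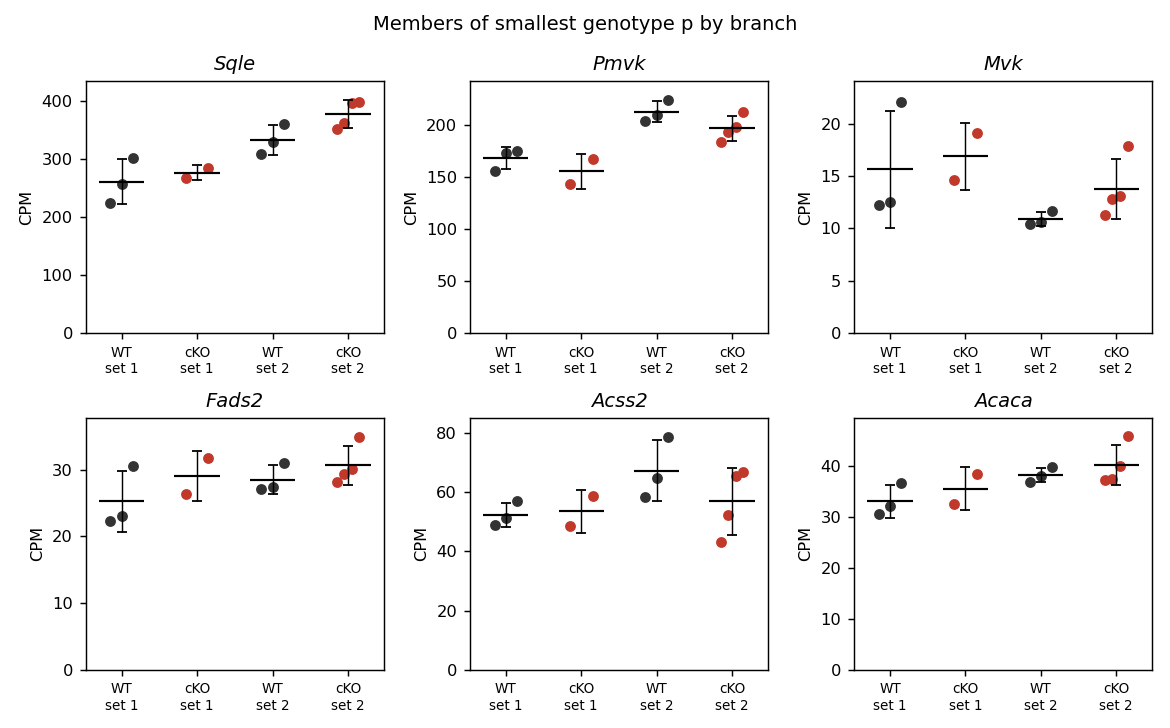
Level in CPM of the 3 sterol enzymes (top) and the 3 fatty acid genes (bottom) of smallest genotype p, by library set and genotype. Points are libraries, horizontal lines means and bars SD (n = 3 WT and 2 cKO in set 1, 3 WT and 4 cKO in set 2); WT and cKO points overlap in each gene, and the Mvk library at 22.1 CPM is WT replicate 1.

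The genes that regulate the pathway did not pass the test between genotypes either. Srebf2, which encodes SREBP2, had a log2 fold change of 0.23 (SE 0.128) and an adjusted p of 0.833, Srebf1, which encodes SREBP1, one of 0.01 (SE 0.144) and 0.991. Insig1, which holds the SREBP escort protein in the endoplasmic reticulum, was at -0.08 (SE 0.0632) with an adjusted p of 0.876. Stard4, a carrier that moves cholesterol between membranes, was at 0.01 (SE 0.133) with an adjusted p of 0.994. Srebf1 and Srebf2 were among the members with the lowest counts, down to 127 and 187 in a library.

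Whether the genotype difference itself differed between the library sets was tested by an interaction term. No member passed it in edgeR, at an adjusted or at an unadjusted p under 0.05 (background 0% and 3.54%, the latter 1.71% higher and 1.83% lower). The interaction was below 0 in 8 of 10 fatty acid genes and in 6 of 16 sterol enzymes, beside 6567 of 13105 genes tested. The fatty acid genes above 0 were Fasn (0.22) and Acly (0.01).

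The second comparison was between the library sets, and here most of the members differed. Relative to set 1, 13 of the 16 sterol enzymes were higher in set 2 and 1 was lower in edgeR (background 21.5% higher and 22.2% lower), and the median log2 fold change was 0.41, beside 0.0012 for all genes tested. Of the 10 fatty acid genes 5 were higher and 1 was lower, with a median of 0.20. Of the 4 regulators and carriers 2 were higher and the other two did not pass. Over all 30 members this made 20 higher and 2 lower, 22 of 30 past the threshold, against 43.8% of all genes tested. In 14 of 30 members the 7 libraries of set 2 lay wholly to one side of the 5 of set 1, which 23.6% of all genes tested did. These 14 were 10 of the sterol enzymes, Insig1, Stard4, Acly and Elovl6. Leaving out 1 library at a time gave between 18 (without WT replicate 6) and 24 (without cKO replicate 4) members past the threshold.

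**Figure D2:**
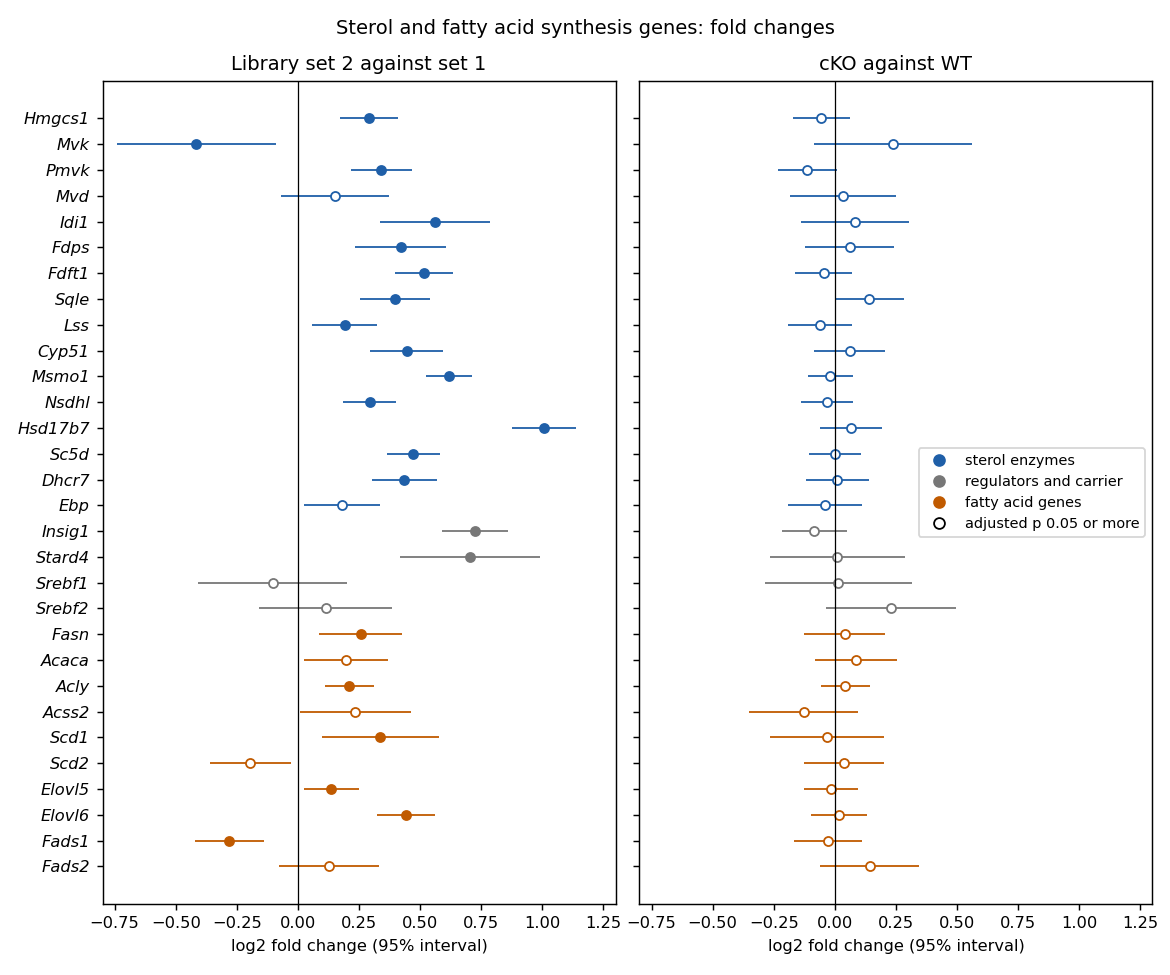
Log2 fold change with its 95% interval for the 30 genes, set 2 against set 1 (left) and cKO against WT (right), from the edgeR fit to 12 libraries. Filled points passed an adjusted p of 0.05; 22 are filled on the left and 0 on the right, and the sterol enzymes on the left run from Mvk at -0.42 to Hsd17b7 at 1.01.

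The largest difference among the sterol enzymes was that of Hsd17b7, the 3-keto-steroid reductase that completes the removal of the 2 methyl groups at carbon 4 of the sterol ring. In set 1 it was at 78.2, 78.4 and 67.3 CPM in WT and at 77.7 and 82.4 in cKO, and in set 2 it ranged from 144 to 169 CPM with a median of 155. Every library of set 2 was above every library of set 1, and Hsd17b7 was 2.01-fold higher (log2 1.01, SE 0.0631, edgeR adjusted p = 3.99e-10). Msmo1, the methylsterol monooxygenase that starts the same demethylation, was at 922, 905 and 1028 CPM in WT and 957 and 911 in cKO of set 1. In set 2 it ranged from 1393 to 1527 CPM with a median of 1447. The sets did not overlap, and the log2 fold change was 0.62 (SE 0.0456, adjusted p = 3.74e-09).

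Sc5d, the desaturase that makes 7-dehydrocholesterol and 7-dehydrodesmosterol, was at 344, 319 and 326 CPM in WT and 336 and 343 in cKO of set 1, and ranged from 428 to 506 CPM (median 460) in set 2. Fdft1, squalene synthase, the first enzyme committed to sterols, was at 286, 283 and 319 CPM in WT and 299 and 271 in cKO of set 1, and ranged from 383 to 462 CPM (median 402) in set 2. Neither gene overlapped between the sets. Their log2 fold changes were 0.47 (SE 0.0519, adjusted p = 6.18e-07) and 0.52 (SE 0.0572, adjusted p = 6.65e-07).

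The other sterol enzymes that were higher in set 2 spread along the route. In the mevalonate steps, Hmgcs1, HMG-CoA synthase, was at 4223 ± 81.2 CPM in set 1 (SD, n = 5) and 5130 ± 489 in set 2 (SD, n = 7), with a log2 fold change of 0.29 (SE 0.0566). Pmvk (0.34), Idi1 (0.56), which makes dimethylallyl diphosphate, and Fdps (0.42), which makes farnesyl diphosphate, were also higher. Of the enzymes that act on squalene, Sqle was at 0.40 and Lss, lanosterol synthase, at 0.19. Of the later steps, Cyp51, which removes the methyl group at carbon 14 of lanosterol, was at 0.45, Nsdhl, the dehydrogenase that acts between Msmo1 and Hsd17b7, at 0.29, and Dhcr7, which makes cholesterol from 7-dehydrocholesterol, at 0.44. Their edgeR adjusted p ran from 1.70e-05 (Dhcr7) to 0.0195 (Lss). Lss did not pass without WT replicate 2 (adjusted p = 0.0538) or without WT replicate 6 (adjusted p = 0.0557).

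Mvk, the mevalonate kinase, was the 1 sterol enzyme lower in set 2. It was at 22.1, 12.6 and 12.3 CPM in WT and 19.1 and 14.6 in cKO of set 1, and ranged from 10.5 to 17.9 CPM (median 11.7) in set 2, so the sets overlapped. Its log2 fold change was -0.42 (SE 0.156, adjusted p = 0.0364), and without WT replicate 1, its highest library, it was -0.25 with an adjusted p of 0.142. It also missed the threshold without any one of WT replicates 4, 5 and 6 (adjusted p = 0.0544, 0.0766 and 0.0724) or cKO replicates 1, 5 and 6 (adjusted p = 0.108, 0.0531 and 0.0572). Mvd (0.15, adjusted p = 0.260), the decarboxylase of the mevalonate steps, and Ebp (0.18, adjusted p = 0.0548), the sterol isomerase, did not pass. Ebp passed without WT replicate 5 (adjusted p = 0.0335) and without cKO replicate 6 (adjusted p = 0.0452).

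Among the regulators, Insig1 was at 76.9, 78.9 and 78.1 CPM in WT and 75.7 and 73.2 in cKO of set 1, and ranged from 109 to 145 CPM (median 126) in set 2. Stard4 was at 24.7, 18.3 and 14.4 CPM in WT and 14.5 and 22.7 in cKO of set 1, and ranged from 26.4 to 36.0 CPM (median 28.6) in set 2. Both genes lay wholly higher in set 2, with log2 fold changes of 0.72 (SE 0.0652, adjusted p = 4.65e-08) and 0.70 (SE 0.137, adjusted p = 0.000344). The transcripts of the transcription factors did not pass the same test, at -0.10 (SE 0.146, adjusted p = 0.602) for Srebf1 and 0.11 (SE 0.130, adjusted p = 0.511) for Srebf2. For these 2 genes the libraries of both sets overlapped, between 7.54 and 13.5 CPM for Srebf1 and between 12.3 and 22.3 CPM for Srebf2.

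In the fatty acid branch the clearest difference was that of Elovl6, the elongase that takes palmitate to stearate. It was at 262, 252 and 241 CPM in WT and 262 and 261 in cKO of set 1, and ranged from 308 to 371 CPM (median 356) in set 2. The sets did not overlap, and the log2 fold change was 0.44 (SE 0.0568, adjusted p = 4.00e-06). Acly, ATP citrate lyase, which supplies cytosolic acetyl-CoA to both branches, was at 1090, 1014 and 916 CPM in WT and 1015 and 1055 in cKO of set 1, and ranged from 1135 to 1258 CPM (median 1168) in set 2. Its sets did not overlap either (log2 fold change 0.21, SE 0.0483, adjusted p = 0.00157).

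Fads1, the delta-5 desaturase, went the other way. It was at 301, 348 and 344 CPM in WT and 334 and 341 in cKO of set 1, and ranged from 227 to 303 CPM (median 277) in set 2. The sets overlapped only between WT replicate 1 and cKO replicate 6, and the log2 fold change was -0.28 (SE 0.0672, adjusted p = 0.00223). Fasn, fatty acid synthase, was at 59.0, 45.3 and 53.3 CPM in WT and 52.2 and 46.5 in cKO of set 1, and ranged from 53.2 to 66.8 CPM (median 64.1) in set 2. The sets of Fasn overlapped, and its log2 fold change of 0.26 (SE 0.0808, adjusted p = 0.0148) did not pass without cKO replicate 2 (adjusted p = 0.0775).

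Scd1, the stearoyl-CoA desaturase that makes oleate, was higher by 0.34 (SE 0.114, adjusted p = 0.0224) but spread widely in set 2, at 973 ± 200 CPM (SD, n = 7) against 773 ± 49.5 in set 1 (SD, n = 5). It did not pass without WT replicate 6 (adjusted p = 0.0593) or cKO replicate 1 (adjusted p = 0.0589). Its paralogue Scd2, the main desaturase of embryonic brain, was at 3552 ± 514 CPM in set 2 and 4049 ± 263 in set 1, with a log2 fold change of -0.19 (SE 0.0794, adjusted p = 0.0537). Scd2 passed without WT replicate 3 (adjusted p = 0.0470), WT replicate 5 (adjusted p = 0.0430) or cKO replicate 6 (adjusted p = 0.00262). Scd1 and Scd2 are close copies, and how reads shared between them were counted is not given in the sources used here.

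Elovl5, which lengthens polyunsaturated fatty acids, was at 726 ± 16.8 CPM in set 1 and 796 ± 58.2 in set 2, with a log2 fold change of 0.14 (SE 0.0535, adjusted p = 0.0462). Leaving out any one of WT replicates 1, 2, 5 and 6 (adjusted p = 0.0907, 0.0796, 0.0866 and 0.0805) ended its call. Leaving out any one of cKO replicates 1, 2, 3, 5 and 6 (adjusted p = 0.0981, 0.0731, 0.0533, 0.0682 and 0.0769) also ended it. Acaca (0.20, adjusted p = 0.0606), Acss2 (0.23, adjusted p = 0.0894) and Fads2 (0.13, adjusted p = 0.307) did not pass. Acaca passed without WT replicate 2 (adjusted p = 0.0398) or cKO replicates 1, 3 or 4 (adjusted p = 0.0458, 0.0491 and 0.0466), and Acss2 without cKO replicates 2 or 4 (adjusted p = 0.0388 and 0.0145).

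**Figure D3:**
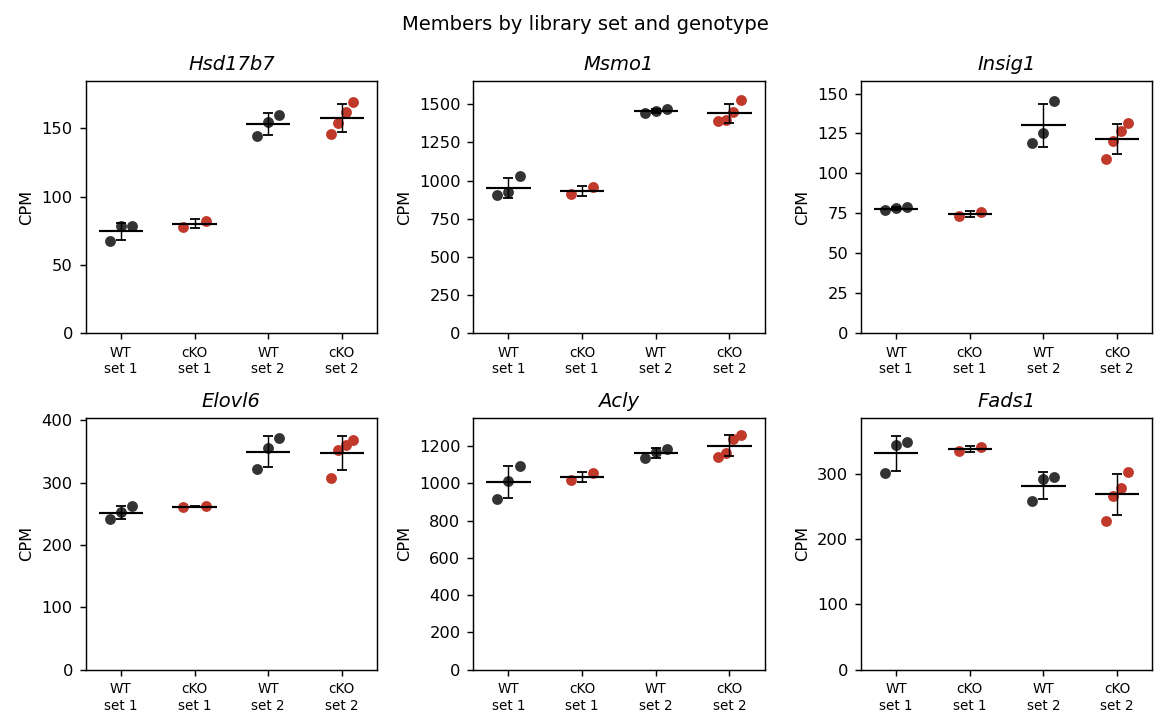
Level in CPM of Hsd17b7, Msmo1, Insig1, Elovl6, Acly and Fads1 by library set and genotype. Points are libraries, horizontal lines means and bars SD (n as in each group: 3 WT and 2 cKO in set 1, 3 WT and 4 cKO in set 2); in the first 5 genes every point of set 2 lies above every point of set 1, and Fads1 is lower in set 2.

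The level of each branch was also followed library by library. The mean log2 CPM over the 16 sterol enzymes was 7.33 to 7.56 in the 5 libraries of set 1 and 7.77 to 7.87 in the 7 of set 2, with no overlap. Over the 10 fatty acid genes it was 7.82 to 7.93 in set 1 and 7.84 to 8.14 in set 2, which overlapped. Neither branch varied less than the other in both sets. Within set 1 the SD of the sterol mean was 0.11 in WT (n = 3) and 0.06 in cKO (n = 2), and that of the fatty acid mean 0.03 and 0.04. Within set 2 the SD of the sterol mean was 0.03 in both WT (n = 3) and cKO (n = 4), and that of the fatty acid mean 0.07 and 0.12. The cKO libraries of set 2 held both ends of the fatty acid range, cKO replicate 4 at 0.18 below and cKO replicate 6 at 0.12 above the WT mean of their set.

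Those 2 libraries stood at the ends gene by gene as well. After genotype and set were taken out, cKO replicate 4 was the lowest of the 12 libraries for 5 of the 10 fatty acid genes and for 9 of the 30 members, and it was the lowest for 15.1% of all genes tested. Its library total was the smallest of the 12, at 11830839 counts. The highest of the 12 was cKO replicate 6 for 5 of the 10 fatty acid genes (12.1% of all genes tested) and WT replicate 1 for 11 of the 30 members (9.93% of all genes tested). For Scd2 the pair stood at 2802 CPM (cKO replicate 4) and 4507 CPM (cKO replicate 6), and for Scd1 at 620 and 1219 CPM. Without cKO replicate 4 the genotype test again called 0 of the 30 members, and the set test called 24 (22 higher and 2 lower). Without cKO replicate 6 it called 0 and 22 (20 higher and 2 lower).

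**Figure D4:**
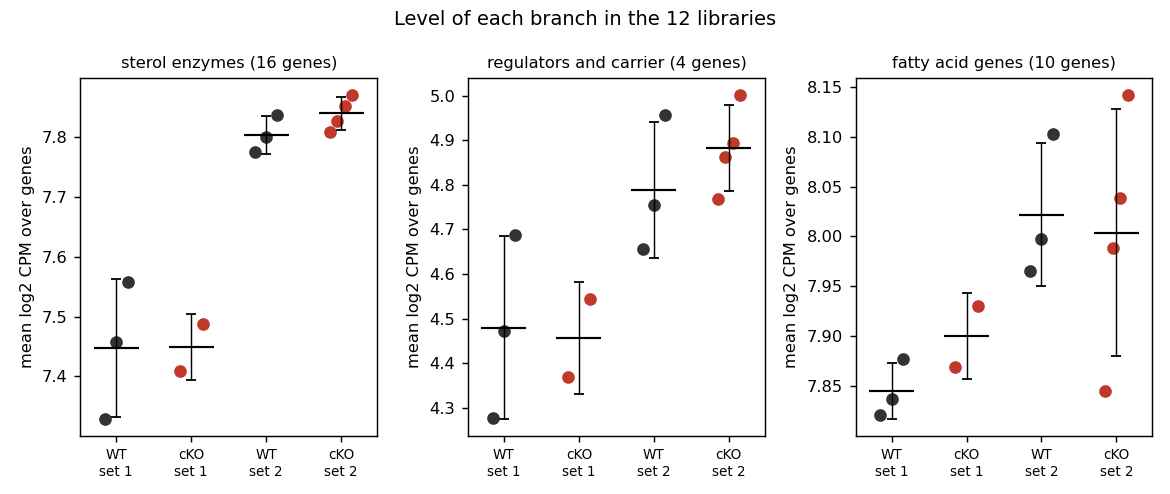
Mean log2 CPM over the genes of each branch in the 12 libraries, by library set and genotype; the vertical axes do not start at 0. Points are libraries, lines means and bars SD (n = 3 WT and 2 cKO in set 1, 3 WT and 4 cKO in set 2); the sterol means of set 1 end at 7.56 and those of set 2 begin at 7.77, while the fatty acid means overlap.

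Markers of glia moved with the library sets, and the counts of markers below stand against a background of 21.5% of all genes higher and 22.2% lower in set 2. The 8 astrocyte markers summed to between 4205 and 5759 CPM in set 1 and between 1859 and 3080 in set 2, and 7 of the 8 were lower in set 2. The oligodendrocyte lineage markers summed to between 1078 and 1376 CPM in set 1 and between 451 and 810 in set 2, and 8 of the 10 tested were lower. Of the 8 progenitor and radial glia markers 4 were higher and 4 lower, and of the 5 neuronal markers tested 3 were higher and 1 was lower while their summed level was 2036 to 2610 CPM in set 1 and 1750 to 1938 CPM in set 2. The part of these cell type differences in the sterol and fatty acid values was not tested. Between genotypes no marker in any list passed the edgeR test.

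Other genes of the same metabolism were called in both directions between the sets. Of 22 further genes of sterol synthesis, transport and control, 21 were tested, and 6 were higher and 4 lower in set 2 (background 21.5% higher and 22.2% lower), with a median log2 fold change of -0.04. The share past the threshold was 47.6%, near the background of 43.8%. Lbr (0.76), a sterol C14 reductase of the nuclear envelope, Tmem97 (0.57), which binds the lysosomal cholesterol transporter, Lpin1 (0.51), Insig2 (0.40) and Acat2 (0.28), which makes acetoacetyl-CoA, were higher. Abca1 (-1.44), the cholesterol efflux pump, Npc1 (-0.89) and Npc2 (-0.19), which export cholesterol from lysosomes, and Mbtps1 (-0.55), the protease that cleaves SREBPs, were lower. Abca1 was at 145 ± 26.9 CPM in set 1 (SD, n = 5) and 52.9 ± 12.4 in set 2 (SD, n = 7), and Lbr at 186 ± 10.2 and 321 ± 34.2, with no overlap in either. Acat1, with Acat2 and Npc2 one of the 3 most abundant in CPM in this list, was at -0.04 and did not pass. No gene of the list passed the genotype test.

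Of 29 further fatty acid genes, 24 were tested, and 7 were higher and 7 lower in set 2 (background 21.5% higher and 22.2% lower), with a median log2 fold change of 0.07. Hsd17b12 (1.16), a reductase of the elongation cycle, Acsl4 (0.88), Acsl5 (0.59) and Acsl3 (0.48), which activate fatty acids with coenzyme A, and Acot7 (0.46), a thioesterase, were higher. Cpt1a (-1.02), which takes fatty acids into mitochondria for oxidation, Hacd2 (-0.70) and Hacd3 (-0.66), dehydratases of the elongation cycle, and Thrsp (-0.45) were lower, as was Tecr (-0.13), the last enzyme of that cycle. Cpt1a was at 85.4 ± 7.60 CPM in set 1 (SD, n = 5) and 42.0 ± 5.51 in set 2 (SD, n = 7), and Acsl4 at 122 ± 5.47 and 229 ± 20.4, with no overlap in either. Elovl2, the third most abundant of the list in CPM after Tecr and Thrsp, was at 0.06 and did not pass. Between genotypes 0 of the 24 passed.

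The HAC-seq data, in which m3C sites are cleaved chemically and read as the share of reads that start beside a base, came from 4 further WT and 3 further cKO samples and covered the lipid synthesis transcripts, most of all Scd2. They listed 2119 sites in 25 of the 30 genes, of 118890 sites in all, and 1839 of them, in 23 genes, were covered by 50 or more reads in all 7 libraries. Scd2 held 817 of these sites, Hmgcs1 271, Fasn 195 and Scd1 127. The median cleavage ratio over these 1839 sites was 2.167% ± 0.0807 in WT (SD, n = 4) and 2.160% ± 0.121 in cKO (SD, n = 3), a difference smaller than the SD of either group. Over all sites at that coverage it was 2.35% in WT and 2.33% in cKO. A p-value under 0.05 stood in the authors' deposited table for 94 of the 1839 sites (5.11%), and for 5.11% of all 87065 sites. By list the share was 3.33% for sterol enzymes, 4.48% for the regulators and carrier and 5.7% for fatty acid genes. The highest member site lay in Scd1 on chromosome 19 at position 44401806 of the minus strand (GRCm38.p6), at 39.4% ± 4.26 in WT (SD, n = 4) and 47.9% ± 5.46 in cKO (SD, n = 3). Its coverage was 60 to 89 reads, and the authors' deposited table gives it a p-value of 0.0960. The ratio counts read starts at a base over coverage, so m3C and other stops of the reaction cannot be told apart at a single site.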

How the data were processed

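RNA-seq counts were analysed for 6 WT and 6 cKO libraries, and HAC-seq, in which m3C sites are cleaved and read as stops, for 4 WT and 3 cKO. Reads were converted, trimmed and aligned by the authors with, among other tools, bcl2fastq 2.17.1.14, Trimmomatic 0.32 and, for alignment, STAR 2.5.2a to GRCm38, per the submitters' processing notes. Neither the counting program nor its strand setting is given in the sources used here. Values in the RNA-seq table are whole-number counts per gene as deposited, with 26621 genes, of which 6309 had no read. Odd values made up 17.4% of counts from 1 to 10 and 50.1% of those from 101 to 1000, so low counts were mostly even, and dividing counts by 2 was tried as an alternative. The HAC-seq table gives, per the file headers, a cleavage ratio (a fraction), the start signal, the coverage counts and a p-value per site, all made by the authors.

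The main fit was edgeR 4.0.16 (R 4.3.3, limma 3.58.1), with filterByExpr by genotype, TMM scaling, a quasi-likelihood F test (two-sided) with genotype and library set as terms, and Benjamini-Hochberg adjustment over 13105 genes at 0.05. The set was read from the library names. CPM use TMM-scaled totals, and log2 CPM a prior count of 2. Intervals use the fit's degrees of freedom (15.1 to 19.1). Members and lists were chosen with earlier results of these data known, and branch values are descriptions with no test. Levels are not compared between genes because no transcript length was used. The fit was also run on simulated data. That outcome is not reported here, and no result above relies on it.

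All 30 members may be named, and of the further lists up to 5 genes per direction of smallest p and the 3 of highest CPM. For the 4 genes of smallest set p per branch, each library of set 1 is given, with the range and median of set 2. The same is given for the regulators past the threshold. For the 3 genes of smallest genotype p in each branch, ranges and medians by genotype are given. Alternatives were RLE scaling, DESeq2 1.42.0, limma-voom, no filter on low counts, each library left out, a replicate block, no set term, each set or genotype alone and embryo sex as a covariate (Y-linked limit of 5 CPM, and, added after seeing the data, 100 CPM). At 5 CPM, WT replicate 3 (6.40 CPM) was grouped with cKO replicates 1 (684 CPM) and 5 (654 CPM). At 100 CPM no WT library was grouped with those cKO libraries. No 2 libraries of a group and set were duplicates (chi-square per degree of freedom 8.19 to 18.2).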

Additional observations from a re-analysis of the deposited data

Results flagged for a closer look

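Each member's 6 WT and 6 cKO libraries were searched for a single value far from the rest, 60 groups in all, and 2 were found, where chance flags about 1 in 20. For Mvk, WT replicate 1 stood at 22.13 CPM, and the next WT library was at 12.55 CPM. For Srebf1, cKO replicate 3 stood at 13.49 CPM, and the next cKO library was at 10.53 CPM. Both groups hold libraries of both sets.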

How the results depend on the processing

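No member passed the genotype test under any alternative (690 tests of single members, adjusted p 0.474 to 1.00). Over all genes the genotype count of 0 became 2 with DESeq2, 1 with limma-voom, 65 with no filter on low counts, 2 in library set 2 alone and 2 with the replicate block. The interaction count of 0 became 2 with DESeq2, 35 with no filter and 3 with the replicate block. With no library set term the sterol median for genotype was 0.073. Equal replicate numbers showed no sign of pairing (correlations of deviations -0.18 to 0.05, and 0 of 6 best matches with the same number). With so few libraries per group and set, this cannot exclude a shared animal, culture or day. Only number 3 joins the sets, and every other number lies within one set. The set term of the replicate block therefore rests on the difference between WT replicate 3 and cKO replicate 3, beside the genotype term. With the replicate block, 6 members and 1024 genes passed the set test, the sterol median was 0.33 and the regulator median 0.71, and Mvk turned to 0.44 (adjusted p = 0.407). In WT libraries alone 3561 genes passed the set test and the sterol median was 0.35, and in cKO libraries alone 3403 genes passed. Ebp passed the set test with DESeq2 (adjusted p = 0.0430) and with counts divided by 2 (0.0464), as did Acaca (0.0420 and 0.0472). Scd2 passed it with limma-voom (0.0414), with no filter (0.000302) and with embryo sex as a covariate (0.0419), and Acss2 with no filter (0.0245) and in WT alone (0.0341). WT alone ended the calls of Fdps, Lss, Mvk, Fasn and Elovl5, and cKO alone those of Hmgcs1, Lss, Mvk, Scd1 and Elovl5. Elovl5 also missed with no filter (0.0574), Elovl5 and Scd1 with embryo sex (0.0581 and 0.0526), and Elovl5 and Mvk with the added sex limit (0.0638 and 0.0540). The cause was not tested in any of these cases. Hsd17b7, Msmo1, Sc5d, Insig1, Acly and Elovl6 passed the set test in all 22 alternatives. Without 1 library at a time, genotype called 0 to 1 genes and the interaction 0 to 1, with 0 members in each. The set test then called 4957 to 5727 genes and 18 to 24 members. The genotype medians ran from -0.02 to 0.02 (sterol), -0.05 to 0.10 (regulators) and -0.0074 to 0.04 (fatty acid), and the set medians from 0.36 to 0.44, 0.34 to 0.46 and 0.17 to 0.22. For single members the set results kept their direction and side of the threshold in 588 tests, lost the call in 51, gained it in 20 and reversed in 1. Srebf1, Mvk and Srebf2 had the lowest counts of the members, down to 127, 154 and 187 in a library. How far low counts limited their results was not tested.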
